A study of Mus musculus with 6 samples.

Results

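Genes of the mouse oxysterol-binding protein family were followed in liver on a normal and a high-fat diet: Osbp, Osbpl1a, Osbpl2, Osbpl3, Osbpl5, Osbpl6, Osbpl8, Osbpl9, Osbpl10 and Osbpl11. They are 10 of 18193 genes on the array that have a probe set with exactly 1 gene symbol. All 23 probe sets naming a member alone were taken. The family itself was chosen by the Osbpl3 levels of these same arrays, which were much higher under the high-fat diet. The Osbpl3 difference is therefore given as a description without a test, and it supports nothing else.

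The livers came from male C57BL/6 mice, a common inbred strain, that were 8 weeks old when feeding began. One group ate a normal diet and the other a high-fat diet supplying 60% of its calories as fat, each for 12 weeks and each with 6 mice, with no transgene or drug named for either. RNA was pooled from 2 mice at a time, which is read here as 3 pools and 3 Affymetrix Mouse Genome 430 2.0 arrays per diet, so p-values measure the spread between pools. Levels are log2 values, differences are high-fat minus normal diet with the standard error (SE) of a limma fit, and the small number of arrays limits the precision.

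The family takes its name from the first member, found as a protein that binds oxygenated derivatives of cholesterol. Its members share a lipid-binding domain that carries a sterol, phosphatidylserine or another lipid between membranes, often in exchange for the phosphoinositide PI4P. Many of them work where the endoplasmic reticulum touches another membrane, held there by the reticulum proteins VAP-A and VAP-B or by an anchor of their own. Liver cells take up, make, store and secrete large amounts of cholesterol and phospholipid, and several of these proteins have been studied there for sterol and triglyceride handling.

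Osbpl3 encodes ORP3, a member that binds the small GTPase R-Ras and the VAP proteins and acts where the endoplasmic reticulum meets the plasma membrane. Its probe set 1428484_at lay at 3.36, 4.42 and 3.48 in normal diet arrays 1, 2 and 3 and at 7.001, 6.80 and 6.49 in high-fat arrays 1, 2 and 3. All 3 high-fat arrays were above all 3 normal diet arrays, with a gap of 2.06 between the closest arrays. The mean difference was 3.01 ± 0.28 on the log2 scale (n = 3 arrays per diet), or 8.04-fold, the 7th highest of 14071 genes tested. Normal diet arrays 1 and 3 lay below the level filter of those arrays, which was 3.54 and 3.59, so the fold rests on a low baseline that RMA, the authors' normalization, tends to compress.

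The other Osbpl3 probe sets gave smaller differences. Probe set 1438724_at lay at 3.19, 3.47 and 3.44 in the normal diet arrays and at 5.76, 5.35 and 5.59 in the high-fat arrays. That is a difference of 2.20 ± 0.14, or 4.59-fold, and only the high-fat arrays were above the level filter. Probe set 1446746_at lay at 2.41, 2.30 and 2.42 against 2.64, 2.54 and 2.49, below the filter in all 6 arrays, with a difference of 0.18. In each of the 3 probe sets every high-fat array was above every normal diet array, as in 19.0% of the 23408 probe sets tested, and normal diet array 2 stood out in the first. With the mean of the 3 probe sets in place of the brightest, the gene's difference was 1.79. Leaving out 1 array at a time gave differences of 2.81 to 3.34 for the first probe set and 2.10 to 2.31 for the second.

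**Figure D1:**
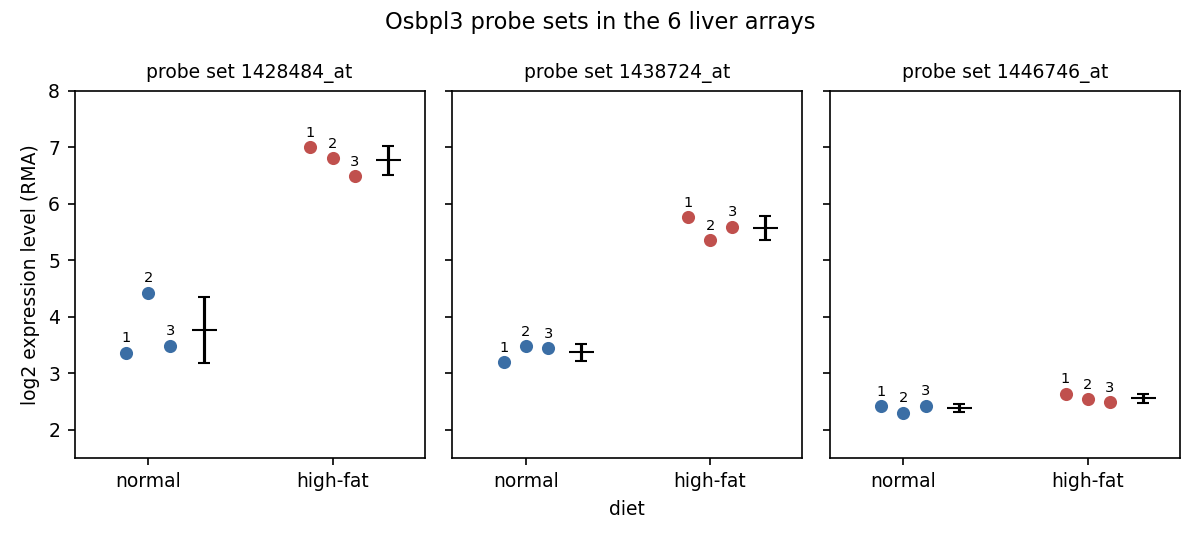
Log2 level (vertical axis) of the 3 Osbpl3 probe sets by diet (horizontal axis); numbered points are arrays, and the black bars are the mean and SD of 3 arrays. The first 2 panels show high-fat arrays from 5.35 to 7.001 and normal diet arrays from 3.19 to 4.42, while the third stays between 2.30 and 2.64; heights are not comparable between panels because probe sets bind with different strength.

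A whole liver holds several cell types, and a higher level cannot be split into more cells of a type and more RNA per cell. Macrophage markers were higher beside Osbpl3: 6 of 9 tested markers rose and 0 fell (limma adjusted p below 0.05), and the mean log2 level of the 10 markers on the array was 6.89 to 7.27 in the normal diet arrays and 7.46 to 7.60 in the high-fat arrays. Of all genes tested, 5.87% rose and 1.73% fell. Cd68 rose by 1.28, while Cd14 differed by -0.77, Marco by -0.059 and Clec4f by 0.071 without passing, and Itgam lay below the filter at 2.59 and 2.45. Of 10 stellate cell markers 4 rose and 0 fell, with mean levels of 6.52 to 6.81 and 7.12 to 7.76. Among them Col3a1 rose by 2.30, and the 6 not called included Des (-0.061), Rgs5 (0.068) and Col1a1 (0.21). Of 10 endothelial markers 1 rose, with mean levels of 6.50 to 6.85 and 7.01 to 7.12. The part of these cell types in the Osbpl3 result was not tested. Of 4 adipocyte markers on the array 2 were tested and 0 called: Fabp4 lay at 7.42 and 8.48 on average (1.06 ± 0.49, limma adjusted p = 0.210) and Retn at 4.81 and 4.41. Adipoq, at 2.66 and 2.61, and Lep, at 2.997 and 2.86, lay below the filter in both diets. Of 9 hepatocyte markers measured, 0 rose and 2 fell, Hnf4a (-0.69) and Fgb (-0.78), and the mean level of the 9 was 13.4 in the normal diet arrays and 13.2 to 13.3 in the high-fat arrays. Of 6 tested cholangiocyte markers 0 were called, and of 5 lymphocyte markers 1 rose, Ptprc, which other white blood cells carry too.

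Pearson's r was taken across probe sets, which are not replicates. Its lowest value, rounded, was 0.994 for pairs of high-fat arrays, 0.984 for pairs of normal diet arrays and 0.974 across diets. Gapdh controls at the 3' end were compared with those at the 5' end, where a higher 3' minus 5' value points to less intact RNA. The log2 value was 0.36 in normal diet array 1 and between -0.19 and 0.01 in the other 5.

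None of the other 9 members passed the test across all genes (limma, Benjamini-Hochberg adjusted p below 0.05), which 7.60% of the 14071 genes tested did, 5.87% upward and 1.73% downward. At an unadjusted p below 0.05 there were 2 of the 9, Osbpl5 and Osbpl8, against 27.6% of all genes. The median difference of the 9 was 0.16, with a range from -0.11 to 0.78, against 0.0033 for all genes tested. Above 0 lay 7 of the 9, or 77.8%, against 50.5% of all genes. All 10 members passed the level filter. The contrast is the one through which the family was picked, so these counts are descriptions.

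Osbpl5 and Osbpl8 encode ORP5 and ORP8, close relatives anchored in the endoplasmic reticulum by their own membrane segment, which move phosphatidylserine to the plasma membrane in exchange for PI4P. Osbpl5 lay at 4.05, 4.37 and 3.88 in the normal diet arrays and at 4.62, 5.34 and 4.69 in the high-fat arrays. The groups did not overlap, and high-fat array 2 stood above the other 5. The difference was 0.78 ± 0.22, with a 95% interval from 0.27 to 1.29 and a limma adjusted p of 0.0730. Without high-fat array 2 it was 0.55.

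Osbpl8 lay at 6.25, 5.74 and 5.81 in the normal diet arrays and at 6.31, 6.56 and 6.60 in the high-fat arrays. The groups came within 0.064 of each other, through normal diet array 1 and high-fat array 1. The difference was 0.56 ± 0.16, with a 95% interval from 0.19 to 0.93 and a limma adjusted p of 0.0783. It passed without normal diet array 1 (0.72, adjusted p = 0.0287) and with array weights (0.59, adjusted p = 0.0469), within a range of adjusted p from 0.0287 to 0.219 over all alternatives. Arrays that did not overlap upward, as in these 2 of the 9 genes, were seen in 21.1% of all genes tested.

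The stretches just upstream of the RefSeq start sites of Osbpl3, Osbpl5 and Osbpl8 are shown because these are the members whose high-fat arrays were all above the normal diet arrays. They are 250 bases each from the assembly GRCm38.p6, printed along the gene's own strand and ending at the base before the start site. The Osbpl3 stretch is chr6:50456171-50456420 on the minus strand, the Osbpl5 stretch chr7:143757009-143757258 on the minus strand and the Osbpl8 stretch chr10:111164552-111164801 on the plus strand. Capitals mark exact matches on either strand to a CCAAT box (CCAAT), a GC box (GGGCGG) or an E-box (CACGTG).
Osbpl3: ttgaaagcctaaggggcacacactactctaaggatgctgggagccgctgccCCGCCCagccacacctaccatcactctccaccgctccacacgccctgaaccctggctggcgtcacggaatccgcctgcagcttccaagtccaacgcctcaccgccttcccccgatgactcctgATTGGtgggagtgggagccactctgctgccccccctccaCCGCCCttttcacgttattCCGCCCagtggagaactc
Osbpl5: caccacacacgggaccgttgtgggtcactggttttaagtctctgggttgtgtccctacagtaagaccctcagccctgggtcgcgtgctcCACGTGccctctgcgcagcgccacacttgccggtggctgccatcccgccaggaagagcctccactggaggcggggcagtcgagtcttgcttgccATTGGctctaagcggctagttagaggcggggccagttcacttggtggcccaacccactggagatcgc
Osbpl8: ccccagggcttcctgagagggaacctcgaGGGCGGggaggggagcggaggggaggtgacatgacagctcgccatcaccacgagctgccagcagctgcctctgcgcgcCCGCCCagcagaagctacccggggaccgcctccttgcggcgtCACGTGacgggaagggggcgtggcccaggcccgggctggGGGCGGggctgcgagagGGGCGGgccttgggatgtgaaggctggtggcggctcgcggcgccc
The Osbpl3 stretch held 3 GC boxes, the nearest 18 to 13 bases before the start site, and 1 CCAAT box 76 to 72 bases before it. The Osbpl5 stretch held 1 E-box and 1 CCAAT box, and the Osbpl8 stretch 1 E-box and 4 GC boxes. Among 32851 stretches of the same length in the RefSeq table, 33.8% held a CCAAT box, 32.7% a GC box and 6.02% an E-box. An exact match to 1 sterol response element (TCACNCCAC), a motif of SREBP proteins, was in 0 of the 3 stretches and in 1.05% of all. Variants of this motif were not searched. Such matches describe the letters of these stretches and do not show that a factor binds. The Osbpl3 and Osbpl8 start sites lie inside the outermost annotated extent of their genes, so other transcripts may begin further upstream. The table was searched for every member except Osbpl1a. It held stretches for 8 members and none for Osbpl10. For 3 of the 8 it held several start sites, of which the first listed is shown for Osbpl5. The other Osbpl5 stretches held no E-box and no CCAAT box, and the last listed held 3 GC boxes.

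Osbpl6 encodes ORP6, the member closest in its family branch to ORP3. Its probe set 1451831_at lay at 5.10, 4.93 and 5.20 in the normal diet arrays and at 5.14, 4.98 and 5.58 in the high-fat arrays. Apart from high-fat array 3, the arrays of both diets covered the same range. The difference was 0.16 ± 0.17, with a 95% interval from -0.24 to 0.55 (limma adjusted p = 0.572), and -0.018 without high-fat array 3. A further Osbpl6 probe set above the filter, 1449627_at, differed by 0.039 ± 0.13, and the other 3 were below the filter in all arrays. The third gene of this branch, Osbpl7, was not among the members and differed by -0.034 ± 0.11 (limma adjusted p = 0.869).

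Osbpl2 and Osbpl11 were higher on average under the high-fat diet, with groups that overlapped. Osbpl2 encodes ORP2, a short member without the membrane-targeting PH domain that is linked to cholesterol delivery to the plasma membrane and to lipid droplets. It lay at 7.96, 7.71 and 7.12 in the normal diet arrays and at 7.82, 8.03 and 7.96 in the high-fat arrays. Normal diet array 3 was the low one, while array 1 of that diet was as high as the high-fat arrays. The difference was 0.34 ± 0.21, with a 95% interval from -0.14 to 0.83 (limma adjusted p = 0.320). Without normal diet array 3 it was 0.10, and without normal diet array 1 it was 0.52.

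Osbpl11 encodes ORP11, which pairs with ORP9 and has been found at the Golgi and late endosomes. Its probe set 1455534_s_at lay at 7.03, 7.05 and 6.45 in the normal diet arrays and at 7.33, 7.31 and 6.98 in the high-fat arrays. Array 3 was the lowest of its diet in both groups, and high-fat array 3 fell within the normal diet range. The difference was 0.36 ± 0.19, with a 95% interval from -0.076 to 0.80 (limma adjusted p = 0.252). The other Osbpl11 probe set, 1436027_at, showed the same order of low arrays, with 5.46 in normal diet array 3 and 6.04 in high-fat array 3, and a difference of 0.47 ± 0.25. Without normal diet array 3 the Osbpl11 difference was 0.17.

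Osbpl9 and Osbpl10 encode ORP9 and ORP10, which carry phosphatidylserine and PI4P between the endoplasmic reticulum and the Golgi or endosomes. The brightest Osbpl9 probe set, 1423383_a_at, lay at 9.50, 9.13 and 8.94 in the normal diet arrays and at 8.999, 9.16 and 9.07 in the high-fat arrays, so the high-fat values fell inside the normal diet range. The gene's difference was -0.11 ± 0.15, with a 95% interval from -0.47 to 0.24 (limma adjusted p = 0.657). The other tested Osbpl9 probe sets also had negative differences, of -0.23 ± 0.22 for 1450964_a_at, -0.35 ± 0.21 for 1439283_at and -0.44 ± 0.14 for 1420044_at. In the last of these the groups did not overlap, at 5.42, 5.71 and 5.28 against 5.09, 5.14 and 4.87, as in 14.3% of the 23408 probe sets tested in the lower direction. It was not called when probe sets were tested one by one (limma adjusted p = 0.116), where 6.03% of all probe sets were.

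Osbpl10 lay at 4.26, 3.82 and 4.51 in the normal diet arrays and at 4.08, 4.33 and 4.30 in the high-fat arrays. The high-fat arrays sat within the spread of the normal diet arrays. The difference was 0.037 ± 0.18, with a 95% interval from -0.39 to 0.46 (limma adjusted p = 0.911). A second Osbpl10 probe set, 1456146_at, was above the filter in 2 of 6 arrays and was not tested.

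Osbp encodes the founding member, which exchanges cholesterol for PI4P between the endoplasmic reticulum and the Golgi. It lay at 7.77, 8.11 and 7.67 in the normal diet arrays and at 7.55, 7.79 and 8.03 in the high-fat arrays. The values of the diets were interleaved. The difference was -0.061 ± 0.16, with a 95% interval from -0.45 to 0.32 (limma adjusted p = 0.835). Its near relative Osbp2, which was not a member, differed by -0.16 ± 0.13 (limma adjusted p = 0.441).

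Osbpl1a encodes ORP1, whose long form sits on late endosomes and senses their cholesterol. Probe set 1460192_at lay at 9.71, 9.58 and 9.37 in the normal diet arrays and at 9.52, 9.58 and 9.59 in the high-fat arrays. All high-fat arrays were within the normal diet range. The difference was 0.0073 ± 0.11, with a 95% interval from -0.26 to 0.27 (limma adjusted p = 0.972), and it was -0.13 after quantile normalization and -0.12 after cyclic loess. The other Osbpl1a probe set, 1416823_a_at, was also lowest in normal diet array 3, at 8.65 against 9.27 and 9.13, and differed by 0.034 ± 0.17.

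**Figure D2:**
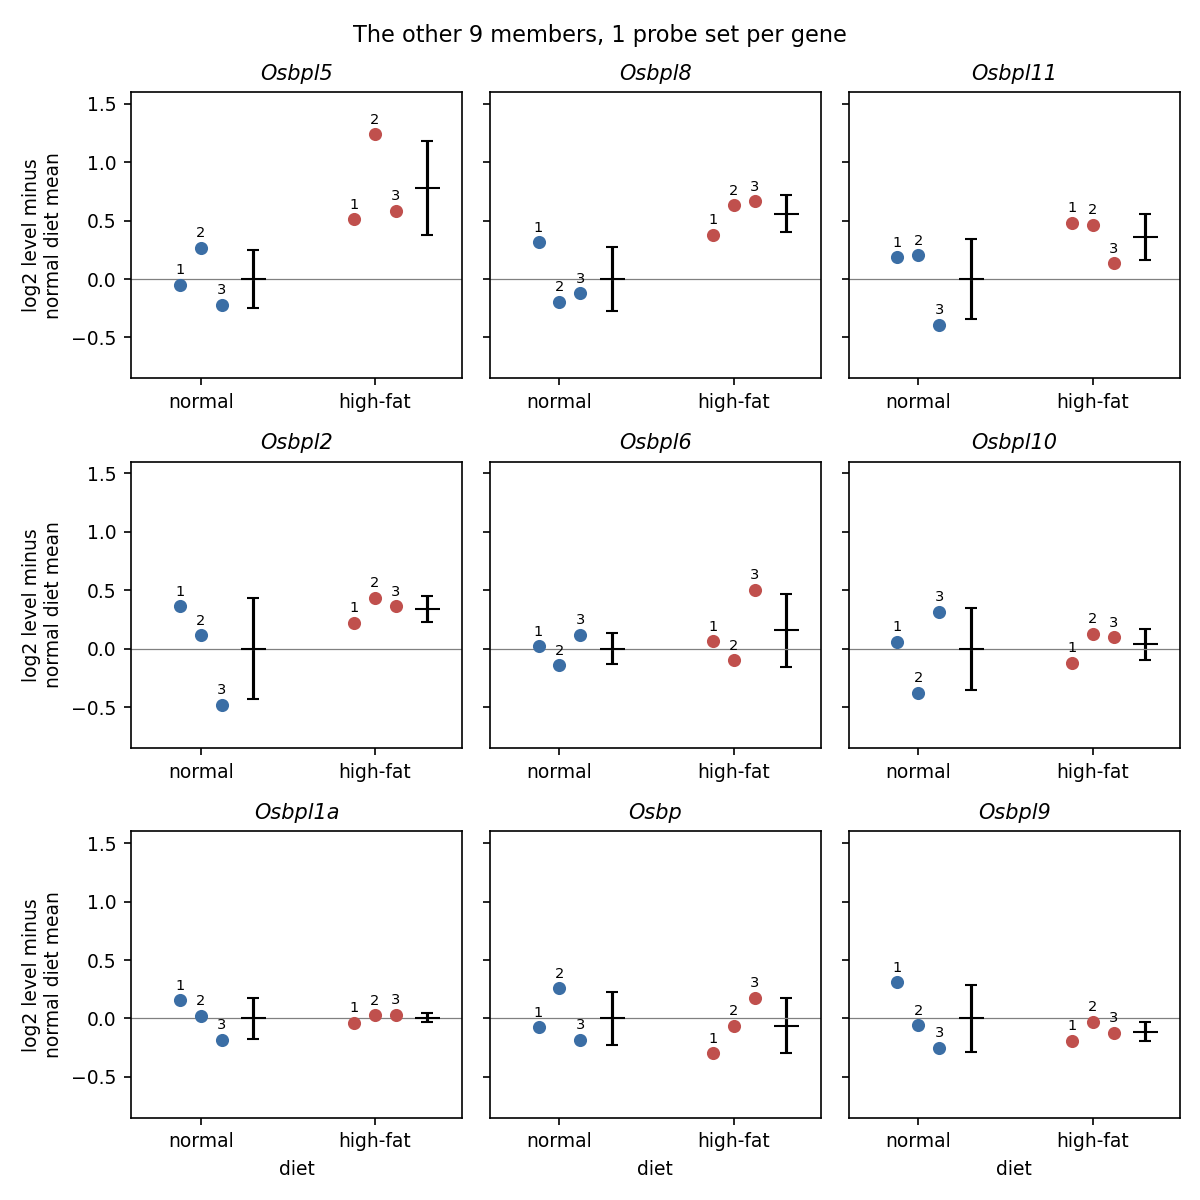
Log2 level of the 9 members other than Osbpl3, minus the normal diet mean of the gene (vertical axis), by diet (horizontal axis); numbered points are arrays, and black bars are the mean and SD of 3 arrays. Only in the Osbpl5 and Osbpl8 panels are all high-fat points above all normal diet points.

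The spread within a diet was wider on the normal diet for 6 of the 9 members, as for 66.7% of all genes tested. The median SD of the 9 was 0.28 in the normal diet arrays and 0.16 in the high-fat arrays, against 0.17 and 0.12 for all genes. Normal diet array 3 was the lowest array of its diet in 6 of the 9 (Osbp, Osbpl1a, Osbpl2, Osbpl5, Osbpl9 and Osbpl11), and in 37.8% of all genes tested. Normal diet array 2 was the lowest in the other 3, Osbpl6, Osbpl8 and Osbpl10.

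**Figure D3:**
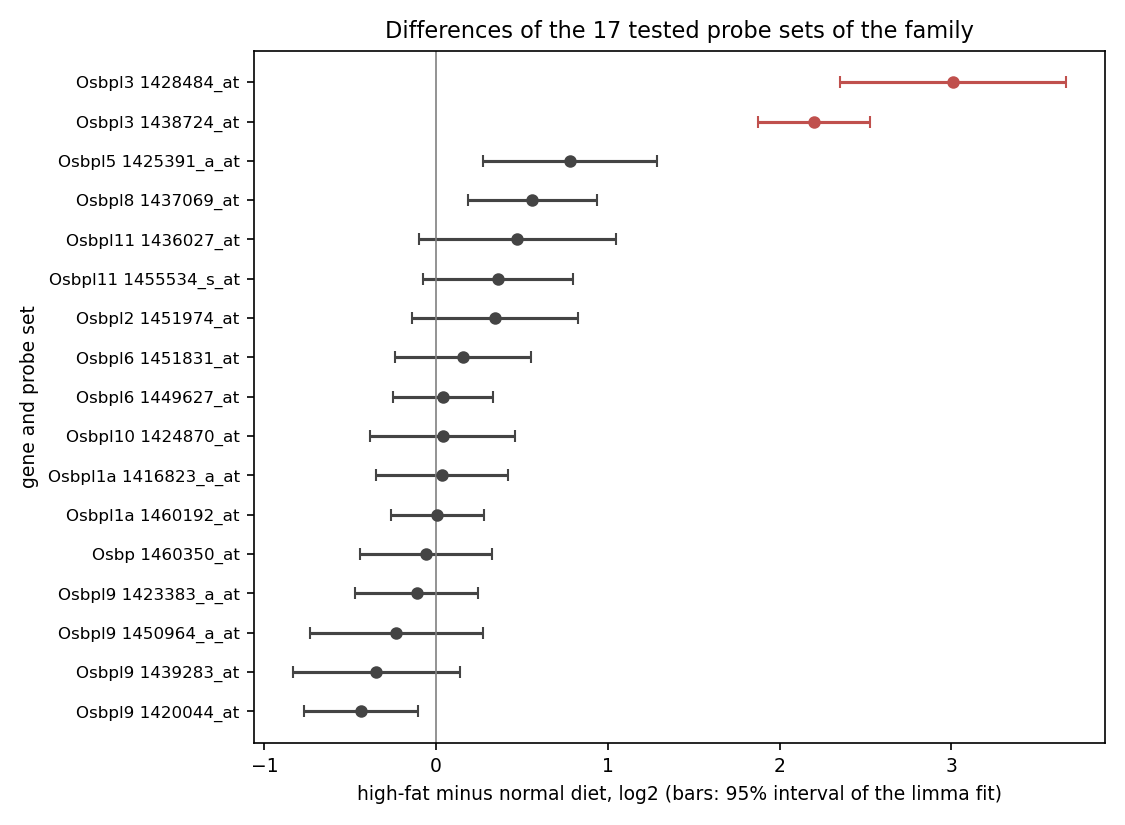
High-fat minus normal diet difference on the log2 scale (horizontal axis) of the 17 probe sets of the family that passed the level filter (vertical axis, by gene and probe set); points are limma estimates and bars their 95% intervals. The 2 Osbpl3 probe sets, in red, sit at 2.20 and 3.01, and the other 15 lie between -0.44 and 0.78.

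Likeness to Osbpl3 was measured as Pearson's r with its brightest probe set over the 6 arrays. It is a description with no p, since the step between the diets makes up most of the pattern. The 5 genes with the highest r were Chmp3 (0.999), which encodes a subunit of the ESCRT-III membrane scission complex, Npc2 (0.997), which encodes a lysosomal cholesterol carrier, Rnd2 (0.997), Drap1 (0.997), which encodes a subunit of a transcriptional repressor, and Carhsp1 (0.996). Their differences were 0.65, 0.83, 1.46, 0.54 and 0.33. Like Osbpl3, Chmp3, Npc2, Rnd2, Drap1 and Carhsp1 were each highest in array 2 of the normal diet and highest in array 1 of the high-fat diet. The genes were picked by r over these same arrays, so a shared order follows from that choice. Within the family r was 0.86 for Osbpl5, 0.72 for Osbpl8, 0.71 for Osbpl11, 0.55 for Osbpl2 and 0.22 for Osbpl6, and between -0.37 and 0.019 for the other 4.

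Genes working beside the family were taken from 3 lists. Of 20 tested genes for contact site partners and the PI4P cycle, 0 passed and 20 were not called (limma adjusted p below 0.05), with 6 at an unadjusted p below 0.05. Of all genes, 7.60% were called and 27.6% had an unadjusted p below 0.05. The median difference was 0.23, against 0.0033 for all genes. The smallest p belonged to Efr3a, which holds the PI4P-making kinase complex at the plasma membrane, and to Rras, which encodes the ORP3 partner R-Ras. Efr3a lay at 6.71 to 6.97 in the normal diet arrays and 7.27 to 7.35 in the high-fat arrays, a difference of 0.44 ± 0.11 (limma adjusted p = 0.0518). It passed after median centring (0.48, adjusted p = 0.0424) and with array weights (0.39, adjusted p = 0.0422), within a range of 0.0422 to 0.228 over the alternatives. Rras lay at 7.19 to 7.73 and at 7.90 to 8.28, a difference of 0.61 ± 0.16 (limma adjusted p = 0.0662). It passed without normal diet array 1 (0.75, adjusted p = 0.0412, within a range of 0.0412 to 0.198). Vapa and Vapb, which encode docking proteins of the family, differed by -0.050 ± 0.12 and 0.30 ± 0.17 and were not called. The largest difference in the list was that of Mospd2, at 0.81 ± 0.24 (limma adjusted p = 0.0865), also not called. It lay at 6.64 to 7.63 in the normal diet arrays and at 7.98 to 8.12 in the high-fat arrays.

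Of 25 tested genes for other lipid transfer proteins, 3 rose, 0 fell and 22 were not called, with a median difference of 0.23, where 5.87% of all genes rose and 1.73% fell. An unadjusted p below 0.05 was found for 8 of the 25, against 27.6% of all genes. The largest difference in this list was that of Pctp, at 1.28 ± 0.42 (limma adjusted p = 0.104), not called. Gltp, which encodes a glycolipid transfer protein, rose 2.01-fold, lying at 4.67 to 4.82 in the normal diet arrays and at 5.62 to 5.85 in the high-fat arrays (1.01 ± 0.11, limma adjusted p = 0.00500). Npc2 rose 1.77-fold, lying at 8.53 to 8.78 on the normal diet and at 9.32 to 9.56 on the high-fat diet (0.83 ± 0.12, limma adjusted p = 0.0109). Cert1, which encodes the carrier of ceramide from the endoplasmic reticulum to the Golgi, rose 1.52-fold, lying at 8.18 to 8.30 and at 8.76 to 8.89 (0.61 ± 0.096, limma adjusted p = 0.0138). In all 3 genes every high-fat array was above every normal diet array, as in 10 genes of the list and 21.1% of all genes tested. The Gltp call remained whichever array was left out, while Npc2 was not called without high-fat array 1 (adjusted p = 0.0523) or 2 (0.0523). The Npc2 difference was 0.50 when its probe sets were averaged. Cert1 was not called without high-fat array 1, 2 or 3 (adjusted p = 0.0659, 0.0540 and 0.0685) or when its probe sets were averaged (0.099, adjusted p = 0.407). Without high-fat array 1 or 2 the list count was 1.

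Of 14 tested genes in a broad list around oxysterol enzymes and receptors, 2 rose, 1 fell and 11 were not called, with a median of 0.069. An unadjusted p below 0.05 was found for 7 of the 14, against 27.6% of all genes. The largest upward difference was that of Insig1, at 1.29 ± 0.32 (limma adjusted p = 0.0548), not called. Of all genes, 5.87% rose and 1.73% fell. A place in the list does not show that a gene acts on oxysterols. Cyp7b1, which encodes the enzyme that hydroxylates oxysterols on the way to bile acids, lay at 12.1, 10.1 and 12.5 in the normal diet arrays and at 7.07, 6.93 and 7.43 in the high-fat arrays, and fell 21.5-fold (-4.43 ± 0.58, limma adjusted p = 0.00860). Normal diet array 2 was the lowest of its diet, and the groups were far apart. The difference for Cyp7b1 was -3.05 with the mean of its probe sets. Ephx1, which encodes an epoxide hydrolase, rose 2.02-fold (1.02 ± 0.23, limma adjusted p = 0.0421), and Hsd3b7, a bile acid synthesis enzyme gene acting on hydroxylated sterols, 1.497-fold (0.58 ± 0.13, adjusted p = 0.0395). Ephx1 was not called without normal diet array 1 (adjusted p = 0.0616) or without any of the high-fat arrays (0.129 to 0.142). Hsd3b7 was not called without normal diet array 1 or 2 (0.0775 and 0.0836), without any of the high-fat arrays (0.0710 to 0.129), after quantile normalization (0.0657) or after cyclic loess (0.101). The list count of higher genes was 1 without normal diet array 1 or 2, 4 without normal diet array 3 and 0 without any of the high-fat arrays. The count of lower genes was 2 without normal diet array 2. Ch25h, which encodes the 25-hydroxylase of cholesterol, was below the filter at 3.41 and 3.37.

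**Figure D4:**
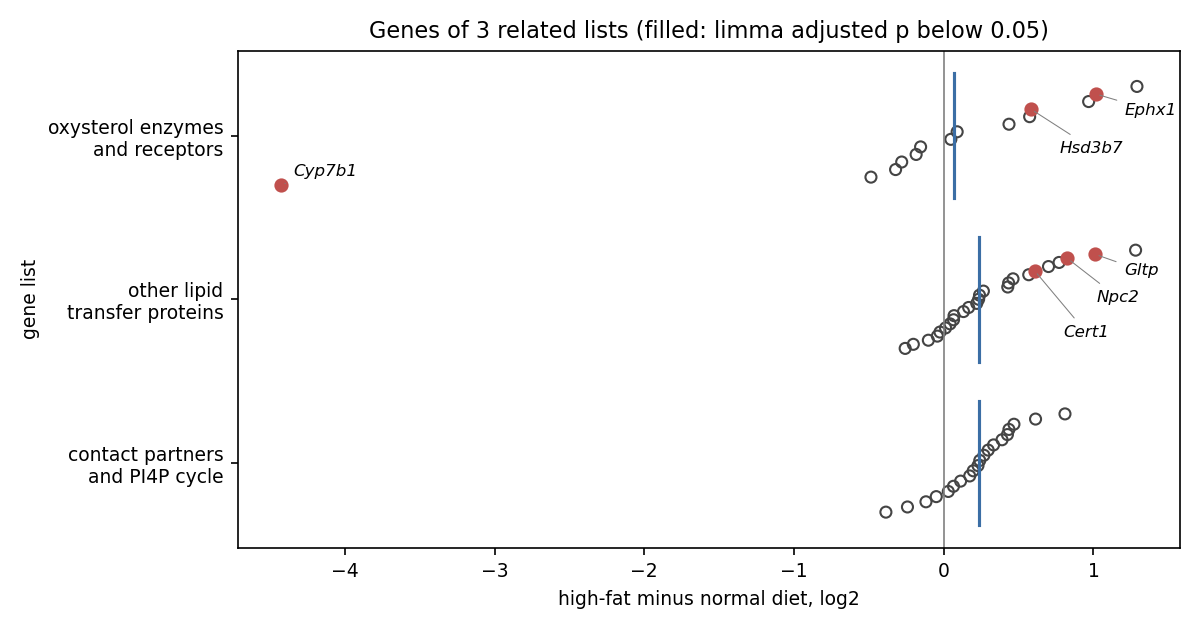
High-fat minus normal diet difference on the log2 scale (horizontal axis) of the tested genes of 3 lists (vertical axis); each point is a gene, filled and named where the limma adjusted p was below 0.05, and the vertical blue line is the list's median. The filled points are Cyp7b1 at -4.43 and 5 genes between 0.58 and 1.02.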

How the data were processed

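The authors deposited log2 expression levels per probe set, made with RMA; the submitters' processing notes name Expression Console 1.0 (Affymetrix). TRIzol extraction and biotin labelling are given in the labels. Of 45101 probe sets 64 controls were left out, and 34945 had 1 symbol in the platform annotation. For each gene the brightest probe set over all arrays was used, and tested if above the 40th percentile of its array in at least 3 of 6 arrays. limma 3.58.1 (R 4.3.3) compared the diets, two-sided, with Benjamini-Hochberg adjustment over 14071 genes or, for single probe sets, 23408. Upstream sequences come from the RefSeq table of GRCm38.p6.

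Members and lists were chosen with earlier results of these data known. Named were all members, in each list up to 4 called genes or else the 2 with the smallest p, and the 5 genes most like Osbpl3. Vapa, Vapb, Mospd2, Pctp, Insig1, Ch25h and single markers were named after their values were seen. Of 129 list entries 120 matched a gene. Protein sequences were not used here. Alternatives were level filters, scalings, variance models, array weights, a replicate block, the mean of probe sets and each array left out.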

Additional observations from a re-analysis of the deposited data

How the results depend on the processing

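The number of genes that differed was 169 to 1245 with 1 array left out (1070 with all), and of probe sets 178 to 1532 (1411 with all); both fell most without a high-fat array. Of the 9 members other than Osbpl3, 1 was called with array weights (Osbpl8) and 0 to 1 with an array left out. In the contact partner list 1 gene was called higher after median centring, 2 with array weights, 1 with the mean of probe sets and 0 to 1 with an array left out. The list of other lipid transfer proteins had 1 to 4 genes called higher with an array left out. The oxysterol list had 1 gene higher after quantile normalization or cyclic loess and 3 lower after cyclic loess, and 0 to 4 higher and 1 to 2 lower with an array left out. The cause was not tested.

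Replicate numbers are shared by the diets, but deviations of same-numbered arrays correlated at -0.012, 0.036 and 0.10, so the numbers are not read as pairs. With the number as a replicate block, 912 probe sets and 768 genes differed, and 1 of the 9 members was called (Osbpl5, 0.78, adjusted p = 0.0352, range over the alternatives 0.0352 to 0.163). Normal diet arrays 1 and 2 did not correlate best with their own number, while normal diet array 3 did, at 0.10.

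Signs turned in members near 0, none of them called. With an array left out, Osbp ranged from -0.18 to 0.068, Osbpl1a from -0.084 to 0.087, Osbpl6 from -0.018 to 0.29, Osbpl9 from -0.24 to 0.042 and Osbpl10 from -0.15 to 0.20. Osbp was at 0.068 without normal diet array 2 and 0.057 without high-fat array 1. Osbpl1a was at -0.13 after quantile normalization, -0.12 after cyclic loess, -0.028 with array weights, -0.084 without normal diet array 3 and -0.0021 and -0.0057 without high-fat arrays 2 and 3. Osbpl6 was at -0.018 without high-fat array 3, Osbpl9 at 0.042 without normal diet array 1, and Osbpl10 at -0.15 without normal diet array 2 and -0.0091 without high-fat array 2. The median difference of all genes moved by less than 0.1 under every scaling. Signal near background limits Osbpl3 on the normal diet and 6 probe sets that were not tested.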
